A study of Mus musculus with 12 samples.

Results

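The 10 genes described here were 8 Toll-like receptors, their transport protein Unc93b1 and the co-receptor Cd14, taken by symbol from the 27179 genes counted in each library. Tlr1, Tlr2, Tlr4, Tlr6 and Cd14 act at the cell surface, and Tlr7, Tlr8, Tlr9, Tlr13 and Unc93b1 in endosomes. All 10 were present in the files and all 10 entered the tests. Tlr1 and Tlr8 were under the count filter in all untreated libraries and passed it through later groups, Tlr8 through d4 Dox and d6 Dox only. Tlr2 was over the filter in 2 of 3 untreated libraries, and the other 7 genes were over it in every library.

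RNA came from AML246, a cytogenetically normal acute myeloid leukemia of C57BL/6 mice that is p53-/- and carries an shRNA against PU.1 linked to GFP. In leukemic recipients Dox (doxycycline) turned the hairpin off, and PU.1, a transcription factor of myeloid cells made from Spi1, came back. GFP-positive bone marrow cells were sorted as GFPhigh from untreated mice, GFPhigh-mid after 2 days of Dox, GFPmid after 4 days and GFPlow after 6 days, with 3 libraries in each of the 4 groups. Every group, untreated included, carried the hairpin and lacked p53, and all cells came from 1 leukemia. The time on Dox, the GFP gate and Dox itself cannot be told apart. The titles call the replicates technical whereas the design text speaks of triplicate mice, so the p-values reflect only how much these samples differ, which may be technical variation.

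Toll-like receptors recognise microbial molecules and signal to NF-kB and interferon regulatory factors, mostly through the adaptor Myd88. Surface receptors bind lipopeptides and lipopolysaccharide. Endosomal receptors bind nucleic acids, depend on Unc93b1 to leave the endoplasmic reticulum, and several are cut by endosomal proteases before they signal. Monocytes, macrophages, dendritic cells and neutrophils express different subsets of them, and PU.1 is a known regulator of several myeloid receptor genes.

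Total counts ran between 4918920 and 7356166 per library, and 3 counts equalled 0.393 to 0.640 CPM (counts scaled to library size with TMM factors). Spi1 had 54.2, 67.5 and 65.9 CPM in untreated cells, 107, 98.8 and 123 CPM at d2 Dox, 244, 267 and 269 CPM at d4 Dox and 497, 439 and 438 CPM at d6 Dox. It was higher than in untreated cells at every day, by 0.81 ± 0.11 at d2 Dox, 2.06 ± 0.11 at d4 Dox and 2.87 ± 0.12 at d6 Dox (log2 fold change ± SE; edgeR adjusted p = 0.0039, 1.28e-07 and 2.79e-09). Trp53, the gene of p53, was counted at 14.0 to 45.0 CPM in all libraries; which exons the allele lacks is not given in the sources used here, so these counts check nothing. Replicate 2 of d6 Dox stood apart: its counts varied from replicates 1 and 3 with 44.1 and 38.4 times the counting variance, against 4.76 between replicates 1 and 3 and 2.62 to 10.5 within the other groups. For d6 Dox, the results that moved by over 1.5 times or changed their call without it are given beside the values with it.

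The promoters of 6 of the 10 genes were in the RefSeq table of GRCm38.p6, as windows of 250 bases before to 50 after the start. They are shown because PU.1 is the factor restored here and GAGGAA is the core of its site. Searched on both strands, GAGGAA stood in the windows of Tlr1, Tlr8, Tlr9 and Tlr13 and in neither that of Tlr2 nor those of Tlr6. Of all 32851 promoters 28.3% held GAGGAA, and 31.3% of 27025 genes had at least 1 window with it. The 4 windows with a match are chr5:64933509-64933808 on the minus strand for Tlr1, chrX:167264280-167264579 on the minus strand for Tlr8, chr9:106222348-106222647 on the plus strand for Tlr9 and chrX:106143025-106143324 on the plus strand for Tlr13. Capitals mark GAGGAA, or TTCCTC where it lies on the other strand.
Tlr1: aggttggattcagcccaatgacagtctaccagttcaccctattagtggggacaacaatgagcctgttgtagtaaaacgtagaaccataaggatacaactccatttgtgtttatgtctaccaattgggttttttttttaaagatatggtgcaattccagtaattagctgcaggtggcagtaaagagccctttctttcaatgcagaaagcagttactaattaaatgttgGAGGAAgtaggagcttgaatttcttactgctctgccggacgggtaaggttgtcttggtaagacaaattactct
Tlr8: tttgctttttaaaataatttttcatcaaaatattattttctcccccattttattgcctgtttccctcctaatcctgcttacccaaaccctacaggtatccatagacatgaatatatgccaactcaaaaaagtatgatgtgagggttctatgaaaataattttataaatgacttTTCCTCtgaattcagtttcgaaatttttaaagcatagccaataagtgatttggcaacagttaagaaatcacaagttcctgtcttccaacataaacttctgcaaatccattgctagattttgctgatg
Tlr9: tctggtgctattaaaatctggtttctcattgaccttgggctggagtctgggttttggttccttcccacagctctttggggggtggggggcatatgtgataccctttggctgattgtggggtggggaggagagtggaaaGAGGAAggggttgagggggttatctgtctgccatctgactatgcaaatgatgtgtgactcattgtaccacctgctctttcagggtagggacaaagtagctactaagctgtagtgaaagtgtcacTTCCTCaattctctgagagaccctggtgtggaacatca
Tlr13: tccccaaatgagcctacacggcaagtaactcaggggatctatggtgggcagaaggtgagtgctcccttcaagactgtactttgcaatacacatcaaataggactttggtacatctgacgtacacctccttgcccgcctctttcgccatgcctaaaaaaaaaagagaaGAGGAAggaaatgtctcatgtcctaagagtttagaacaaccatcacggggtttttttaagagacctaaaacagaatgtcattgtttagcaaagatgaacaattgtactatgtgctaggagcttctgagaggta
The match began at position -23 from the start in Tlr1, -77 in Tlr8, -112 and 13 in Tlr9 and -83 in Tlr13. The match of Tlr1 and the second one of Tlr9 were part of GAGGAAGT, an overlapping longer motif found in 3.20% of all promoters. Tlr1 had another RefSeq window with no match. GAAANNGAA, the interferon response element, was in the windows of Tlr6 and Tlr8 and in 8.56% of all promoters, and TTGCGCAA, the C/EBP palindrome, was in none of the 6 genes' windows and in 0.183% of all. A match of letters is a description and shows no binding.

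All 10 genes were higher at d4 Dox than in untreated cells, and 9 of 10 were higher at d6 Dox, Cd14 being the exception. At d2 Dox none of the 10 was called, although the libraries of 6 did not overlap with the untreated ones. A gene was called at an adjusted p under 0.05 in edgeR's quasi-likelihood test over 12057 genes. Over all genes tested, 1.45% were called at d2 Dox in either direction, 22.1% were called higher at d4 Dox and 35% higher at d6 Dox. The libraries of all 10 at d4 Dox and of 9 at d6 Dox lay wholly above the untreated ones, which 29.2% and 34.3% of all genes did. Without d6 Dox replicate 2 the same 9 genes were higher at d6 Dox than in untreated cells, with a median of 2.98 for the 10. With all libraries the median log2 fold change of the 10 genes was 0.41 at d2 Dox, 3.48 at d4 Dox and 3.26 at d6 Dox, while that of all genes was between -0.02 and 0.00. The comparisons with untreated cells share the same 3 untreated libraries. In sorted bulk cells, a larger share of cells that express a receptor and more RNA per cell cannot be told apart.

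**Figure D1:**
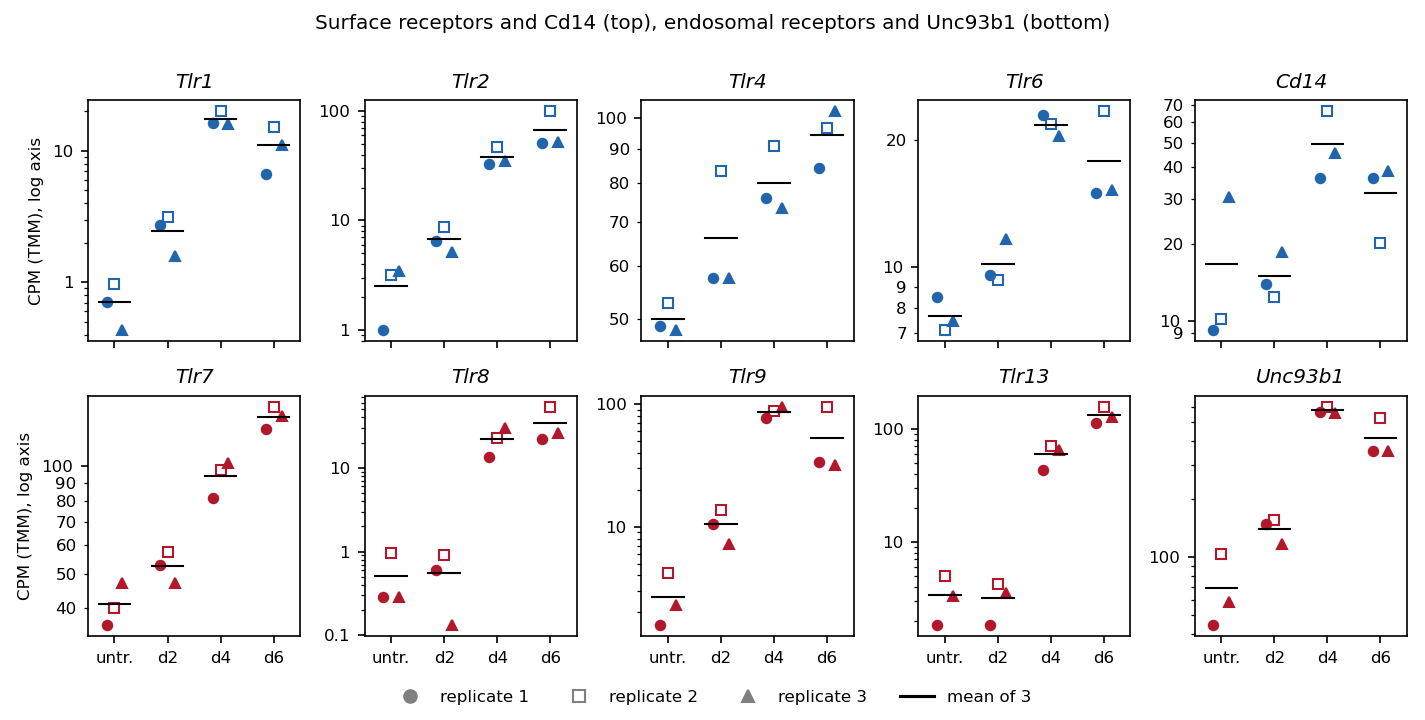
CPM with TMM scaling (log axes, a scale of its own in each panel) of the 10 genes in every library, with marks for replicates and a line at the mean of 3. At d4 Dox the 3 libraries of each gene lie above its untreated libraries, and at d6 Dox replicate 2 (open square) is highest in 8 genes and lowest in Cd14.

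Tlr1 (Entrez 21897, chr5:64924680-64933600) forms a pair with Tlr2 that binds triacylated bacterial lipopeptides. It had 0.709, 0.974 and 0.431 CPM in untreated cells, 2.73, 3.11 and 1.57 CPM at d2 Dox, 16.4, 19.97 and 16.0 CPM at d4 Dox and 6.61, 15.3 and 11.1 CPM at d6 Dox. Each later group lay above the untreated libraries without overlap, and the d6 Dox libraries lay below all d4 Dox ones. It rose by 4.59 ± 0.38 at d4 Dox and 3.94 ± 0.39 at d6 Dox against untreated cells (adjusted p = 2.66e-06 and 2.48e-06).

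Tlr2 (24088, chr3:83836272-83841824) is the shared partner for lipopeptide recognition. It had 0.993, 3.20 and 3.45 CPM in untreated cells, 6.53, 8.79 and 5.11 CPM at d2 Dox, 32.7, 46.9 and 34.8 CPM at d4 Dox and 51.4, 99.3 and 51.7 CPM at d6 Dox. No group overlapped with the one before it. It rose by 3.89 ± 0.40 at d4 Dox and 4.72 ± 0.40 at d6 Dox (adjusted p = 2.32e-05 and 1.27e-06).

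Tlr6 (21899, chr5:64953092-64970942), the partner of Tlr2 for diacylated lipopeptides, had 8.51, 7.10 and 7.47 CPM in untreated cells and 9.57, 9.34 and 11.7 CPM at d2 Dox. It had 22.8, 21.7 and 20.4 CPM at d4 Dox and 14.9, 23.3 and 15.2 CPM at d6 Dox. Both later groups were above all untreated libraries and overlapped each other. It rose by 1.49 ± 0.18 at d4 Dox and 1.22 ± 0.19 at d6 Dox (adjusted p = 4.89e-05 and 8.54e-05). Tlr1 and Tlr6 are neighbours and paralogs: 15.3% of the 50-base words of the Tlr1 transcripts and 12.6% of those of Tlr6 occur in another gene, nearly all in the other of the pair, so reads from there are of uncertain origin. The span of Tlr6 also overlaps Fam114a1 and Mir574, and the strand setting of the counting is not given in the sources used here.

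Tlr4 (21898, chr4:66827551-66846581), the receptor for lipopolysaccharide, was already well expressed before Dox, with 48.9, 52.9 and 48.1 CPM in untreated cells. It had 57.7, 83.3 and 57.7 CPM at d2 Dox, 75.9, 90.8 and 73.5 CPM at d4 Dox and 84.2, 96.8 and 102 CPM at d6 Dox. Neighbouring days overlapped after d2 Dox, and every Dox library was above the untreated ones. The rise was small, 0.68 ± 0.14 at d4 Dox and 0.92 ± 0.14 at d6 Dox (adjusted p = 0.00226 and 9.73e-05).

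Cd14 (12475, chr18:36725064-36726815), which hands lipopolysaccharide to Tlr4 and its partner Ly96, had 9.22, 10.2 and 30.7 CPM in untreated cells and 14.0, 12.4 and 18.6 CPM at d2 Dox. It had 36.3, 66.3 and 45.7 CPM at d4 Dox and 36.3, 20.3 and 38.7 CPM at d6 Dox. Untreated replicate 3 lay within the range of the d6 Dox libraries, and only d4 Dox lay wholly above the untreated group. The difference was 1.57 ± 0.44 at d4 Dox (adjusted p = 0.0149) and 0.92 ± 0.45 at d6 Dox (adjusted p = 0.0909). Without untreated replicate 3 the d6 Dox difference was 1.70 (adjusted p = 0.00123), and without untreated replicate 1 or d4 Dox replicate 2 the d4 Dox call was lost (adjusted p = 0.0507 and 0.0563).

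Tlr7 (170743, chrX:167303380-167330574), a receptor for single-stranded RNA, was the other receptor with a high level before Dox. It had 35.7, 40.0 and 47.1 CPM in untreated cells, 52.7, 57.7 and 47.1 CPM at d2 Dox, 81.3, 98 and 102 CPM at d4 Dox and 127, 147 and 139 CPM at d6 Dox. The groups from d2 Dox on did not overlap, and its replicates lay close together. It rose by 1.20 ± 0.12 at d4 Dox and 1.75 ± 0.13 at d6 Dox (adjusted p = 1.48e-05 and 1.56e-07).

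Tlr8 (170744, chrX:167241123-167264329) lies beside Tlr7 and in humans senses single-stranded RNA. It was counted 2, 7 and 2 times in untreated libraries (0.284, 0.974 and 0.287 CPM) and 4, 5 and 1 times at d2 Dox (0.608, 0.915 and 0.131 CPM). It had 13.4, 22.6 and 29.5 CPM at d4 Dox and 22, 54.0 and 26.2 CPM at d6 Dox. The first 2 groups were near the floor of detection and overlapped, and both later groups were far above them. It rose by 5.34 ± 0.60 at d4 Dox and 6.00 ± 0.59 at d6 Dox (adjusted p = 4.07e-05 and 3.93e-06), with a size that rests on these few untreated counts.

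Tlr9 (81897, chr9:106222598-106226876), the receptor for unmethylated CpG DNA, had 1.56, 4.18 and 2.30 CPM in untreated cells and 10.5, 13.7 and 7.21 CPM at d2 Dox. It had 78.0, 87.8 and 96.0 CPM at d4 Dox and 33.7, 95.0 and 32.0 CPM at d6 Dox. At d6 Dox, replicate 2 was level with d4 Dox while the other 2 libraries were well below it. It rose by 5.01 ± 0.52 at d4 Dox and 4.32 ± 0.52 at d6 Dox (adjusted p = 3.53e-05 and 3.05e-05). The difference at d6 Dox was 3.60 ± 0.29 without d6 Dox replicate 2 (adjusted p = 3.91e-07).

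Tlr13 (279572, chrX:106143275-106160493), which in mice recognises bacterial ribosomal RNA, had 1.84, 5.01 and 3.30 CPM in untreated cells and 1.82, 4.21 and 3.54 CPM at d2 Dox. It had 42.8, 70.3 and 64.6 CPM at d4 Dox and 112, 157 and 127 CPM at d6 Dox. Untreated and d2 Dox libraries overlapped fully, and d4 Dox and d6 Dox each lay above all earlier groups. It rose by 4.12 ± 0.31 at d4 Dox and 5.28 ± 0.31 at d6 Dox (adjusted p = 2.58e-06 and 8.1e-08).

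Unc93b1 (54445, chr19:3935158-3949340), the chaperone of the endosomal receptors, had 44.2, 104 and 58.8 CPM in untreated cells and 149, 156 and 117 CPM at d2 Dox. It had 568, 603 and 561 CPM at d4 Dox and 354, 527 and 356 CPM at d6 Dox. All Dox libraries were above the untreated ones, and all d6 Dox libraries were below those of d4 Dox. It rose by 3.06 ± 0.28 at d4 Dox and 2.58 ± 0.28 at d6 Dox (adjusted p = 1.28e-05 and 9.31e-06).

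**Figure D2:**
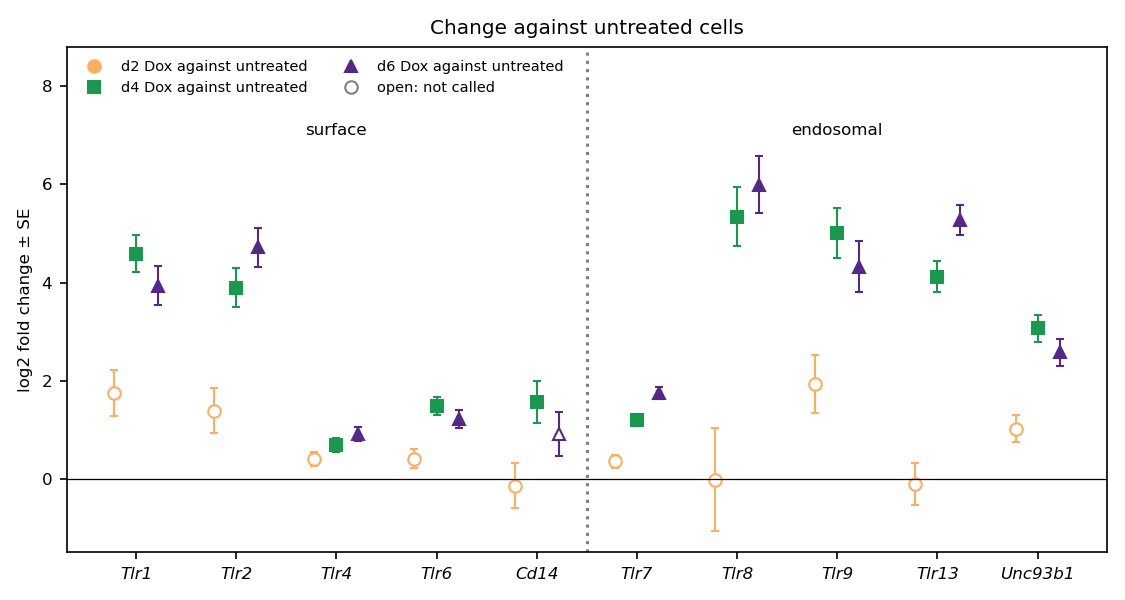
Log2 fold change against untreated cells (points) with its SE (bars) at d2, d4 and d6 Dox, surface genes left and endosomal genes right of the dotted line; open marks were not called. Tlr4, Tlr6, Tlr7 and Cd14 stay under 2 at every day, and the other 6 genes are above 2 at d4 and d6 Dox.

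At d2 Dox the differences that came closest to a call were those of Tlr1 (1.75 ± 0.46, adjusted p = 0.0942), Unc93b1 (1.02 ± 0.27, adjusted p = 0.101) and Tlr9 (1.93 ± 0.58, adjusted p = 0.162). Tlr2 differed by 1.39 ± 0.46 (adjusted p = 0.197), while Tlr8 and Tlr13 differed by -0.02 ± 1.05 and -0.10 ± 0.43. The 6 genes whose d2 Dox libraries all lay above the untreated ones were Tlr1, Tlr2, Tlr4, Tlr6, Tlr9 and Unc93b1, where 12.2% of all genes did so. DESeq2 called 4 of the 10 higher at this day, and the fit without d6 Dox replicate 2 called Tlr1, Tlr2 and Tlr9. Without untreated replicate 2, Unc93b1 was called (1.45, adjusted p = 0.00793), and without d6 Dox replicate 1, Tlr1 was called (adjusted p = 0.0484).

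Of the 10 genes 9 were higher at d4 Dox than at d2 Dox, where 15% of all genes were called higher, and Tlr4 was not called (0.28 ± 0.14, adjusted p = 0.17). Tlr8 differed by 5.36 ± 0.61 and Tlr13 by 4.22 ± 0.32 in this step (adjusted p = 1.53e-04 and 1.01e-05), the largest values among the 10. The call of Cd14 in this step was lost without d2 Dox replicate 1, d2 Dox replicate 2 or d4 Dox replicate 2 (adjusted p = 0.0605 to 0.0664), and Tlr4 was called without d2 Dox replicate 2 (0.47, adjusted p = 0.0179).

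Between d4 and d6 Dox the genes went different ways. Tlr13 (1.16 ± 0.23, adjusted p = 0.00202), Tlr7 (0.55 ± 0.12, adjusted p = 0.00259) and Tlr2 (0.83 ± 0.30, adjusted p = 0.0399) were higher at d6 Dox than at d4 Dox. None of the 10 was called lower in the fit of all 12 libraries with TMM factors and the group as the only term. With upper-quartile factors in its place, Tlr1 was called lower (-0.80, adjusted p = 0.0323). Of all genes 23.6% were called higher and 22.6% lower in this step, so 3 of 10 is near the background. The d6 Dox libraries lay wholly above those of d4 Dox in 3 genes and wholly below in Tlr1 and Unc93b1, which 26.6% and 26.5% of all genes did. Without d6 Dox replicate 2, 5 genes were called: Tlr7 and Tlr13 higher (0.50 ± 0.12 and 1.01 ± 0.24) and Tlr1, Tlr6 and Tlr9 lower (-0.97 ± 0.26, -0.52 ± 0.15 and -1.41 ± 0.22; adjusted p = 0.00601, 0.00897 and 1.80e-04). The call of Tlr2 was then lost (0.43 ± 0.23, adjusted p = 0.131), as it was without d2 Dox replicate 1, d4 Dox replicate 1 or d4 Dox replicate 3 (adjusted p = 0.0553, 0.126 and 0.112). Without untreated replicate 2, Unc93b1 was called lower (-0.49, adjusted p = 0.0342). Scaling by library totals, which moved the median of all genes by -0.42 in this step, left Tlr13 higher and 5 genes lower, and the calls of Tlr2 and Tlr7 were lost. The 5 were Tlr1, Tlr6, Cd14, Tlr9 and Unc93b1.

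**Figure D3:**
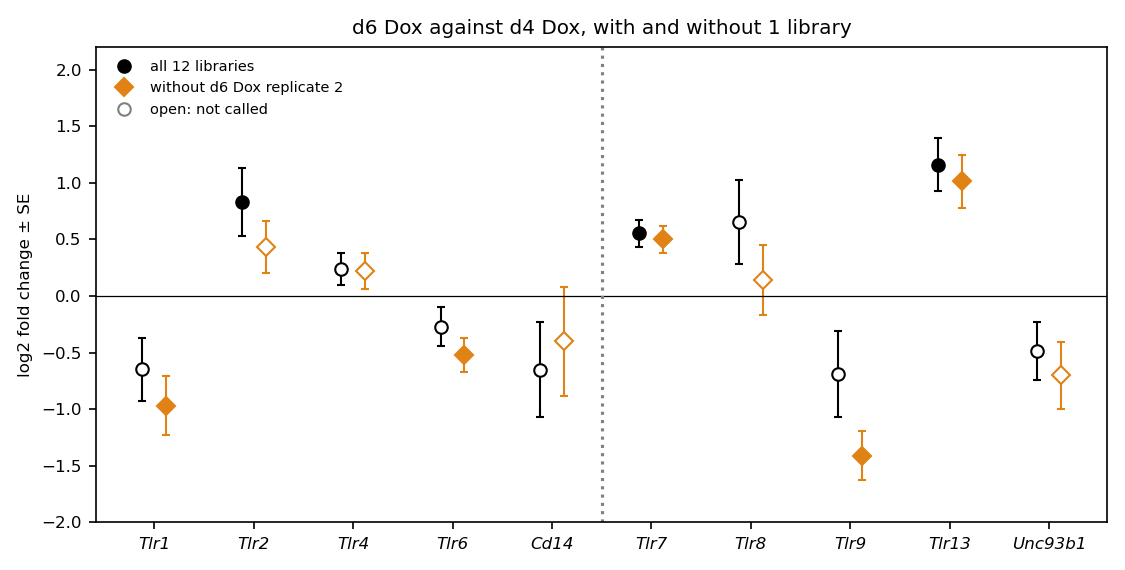
Log2 fold change of d6 Dox against d4 Dox (points) with its SE (bars) for the 10 genes, with all 12 libraries (circles) and without d6 Dox replicate 2 (diamonds); open marks were not called. Tlr9 is at -0.69 with all libraries and at -1.41 without that library.

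Marker lists of other cell types were summed in each library. The summed level of 10 monocyte and macrophage markers, all of them counted in every group, was 143 to 242 CPM in untreated cells, 422 to 621 CPM at d2 Dox and 2249 to 2944 CPM at d4 Dox. At d6 Dox it was 1135, 3081 and 1298 CPM in replicates 1, 2 and 3. Replicate 2 was also highest in most of the 10 receptor genes, Tlr9 among them, and lowest in Cd14. Of the monocyte and macrophage markers, Vcam1 was lowest in replicate 2 (37.0 CPM against 93.6 and 80.0 CPM). Adgre1 lay between the other libraries (57.5 CPM against 56.9 and 72.4 CPM), and the rest were highest in replicate 2. The summed level of 9 mature neutrophil markers was 621 to 1251 CPM in untreated cells, 687 to 1155 CPM at d2 Dox, 1731 to 2545 CPM at d4 Dox and 50313, 26771 and 44647 CPM in the d6 Dox replicates. T cell markers summed to 3.84, 47.7 and 4.10 CPM at d6 Dox, against 0.718 to 2.94 CPM in the earlier groups, and conventional dendritic cell markers to 8.10, 31.8 and 8.39 CPM, against 4.45 to 15.0 CPM. Of the dendritic cell sum in d6 Dox replicate 2, Flt3, which progenitors also express, gave 26.2 CPM. Clec9a and Itgax (0.964 and 1.93 CPM) were lower there than in replicates 1 and 3. Xcr1, Batf3, Zbtb46 and Cd209a (1.607, 0.6429, 0.3215 and 0.1607 CPM) were higher there than in replicates 1 and 3. All of these but Flt3 were low, so their directions rest on few counts. Plasmacytoid dendritic cell markers summed to 176 to 405 CPM over all groups, nearly all from Bst2 and Tcf4. Bst2 averaged 236 CPM at d6 Dox and 149.8 CPM in untreated cells, Tcf4 44.2 CPM at d6 Dox and 119 CPM in untreated cells, and the other 6 genes of that list averaged at most 1.08 CPM in any group, with Cd209d at 0. Markers of myeloid progenitors and the leukemia summed to 29627 to 33370 CPM in untreated cells, 23190 to 24026 CPM at d2 Dox, 13022 to 19722 CPM at d4 Dox and 8311 to 10348 CPM at d6 Dox. Mpo gave the largest part, with means of 18040 CPM in untreated cells and 4170 CPM at d6 Dox. Spi1 is on that list and went the other way, from a mean of 62.5 to 458 CPM. Its other genes averaged lower at d6 Dox than in untreated cells. Megakaryocyte markers summed to 57.9 to 112 CPM at d6 Dox and 18.5 to 24.1 CPM in untreated cells, and natural killer cell markers to 34.9 to 105 CPM at d6 Dox and 42.1 to 69.0 CPM in untreated cells, most of it Nkg7. Ncr1 and Klrb1c were at 0 in d6 Dox replicate 2, while Klrd1 was at 0.482 CPM there and at 0 in replicates 1 and 3. Each of these was at most 1.76 CPM in any d6 Dox library. Gzma, Nkg7 and Prf1 were lower in d6 Dox replicate 2 than in replicates 1 and 3. The part of these markers in the receptor values was not tested.

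Levels were compared between genes per kilobase of the deposited gene length. Unc93b1 was highest in every group, at 30.5 ± 13.8, 62.0 ± 9.24, 255 ± 10.1 and 182 ± 43.8 CPM per kilobase (SD, n = 3) in untreated, d2, d4 and d6 Dox cells. In untreated cells Tlr4 (13 ± 0.664), Cd14 (11.2 ± 8.13) and Tlr7 (10.9 ± 1.54 CPM per kilobase) followed and overlapped each other, and Tlr1 and Tlr8 came last and overlapped. At d4 Dox Cd14, Tlr9, Tlr7 and Tlr4 followed Unc93b1, each overlapping with the next. At d6 Dox Tlr7 (36.8 ± 2.72) and Tlr13 (32.9 ± 5.73 CPM per kilobase) overlapped and stood above Tlr4 (24.6 ± 2.43 CPM per kilobase), while from Tlr4 down to Tlr1 each gene overlapped with the next.

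The 4 surface receptors summed to 17.1 ± 0.751 CPM per kilobase in untreated cells, 24.5 ± 4.37 at d2 Dox, 49.3 ± 5.98 at d4 Dox and 59.3 ± 13.9 at d6 Dox. The 4 endosomal receptors summed to 12.7 ± 1.91, 18 ± 2.57, 71.9 ± 11.3 and 95.9 ± 23.8 CPM per kilobase over the same groups. The endosomal share of the 8 was 42.4% ± 3.5 in untreated cells, 42.4% ± 1.87 at d2 Dox, 59.2% ± 4.19 at d4 Dox and 61.7% ± 0.570 at d6 Dox (SD, n = 3). The shares at d4 Dox (56.0% to 63.9%) and d6 Dox (61.1% to 62.2%) lay above all untreated ones (38.8% to 45.8%). These shares rested on Tlr4, the receptor with the highest mean untreated level and the smallest change: with Tlr4 left out, the endosomal share was 75.3% ± 2.05 in untreated cells, 71.1% ± 1.61 at d2 Dox, 71.5% ± 3.45 at d4 Dox and 73.8% ± 2.24 at d6 Dox, and d4 and d6 Dox overlapped with untreated cells. With any other receptor left out the mean share at d4 and d6 Dox stayed above that in untreated cells, by 7.51 to 40.1 percentage points. Without Tlr9 the d4 Dox libraries (44.1% to 53.8%) overlapped with the untreated ones (37.8% to 44.6%). No test of a difference between the surface and endosomal receptors was run. The median log2 fold change was 4.57 for the endosomal and 2.69 for the surface receptors at d4 Dox, and 4.8 and 2.58 at d6 Dox, and the values of single genes interleaved: at d4 Dox Tlr1 and Tlr2 (4.59 and 3.89) were above Tlr7 (1.20). Without d6 Dox replicate 2 the medians at d6 Dox were 4.37 and 2.30. The endosomal medians include Tlr8, which passed the count filter only through d4 and d6 Dox, where it was high. The surface medians include Tlr1, which was under the filter in all untreated libraries.

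**Figure D4:**
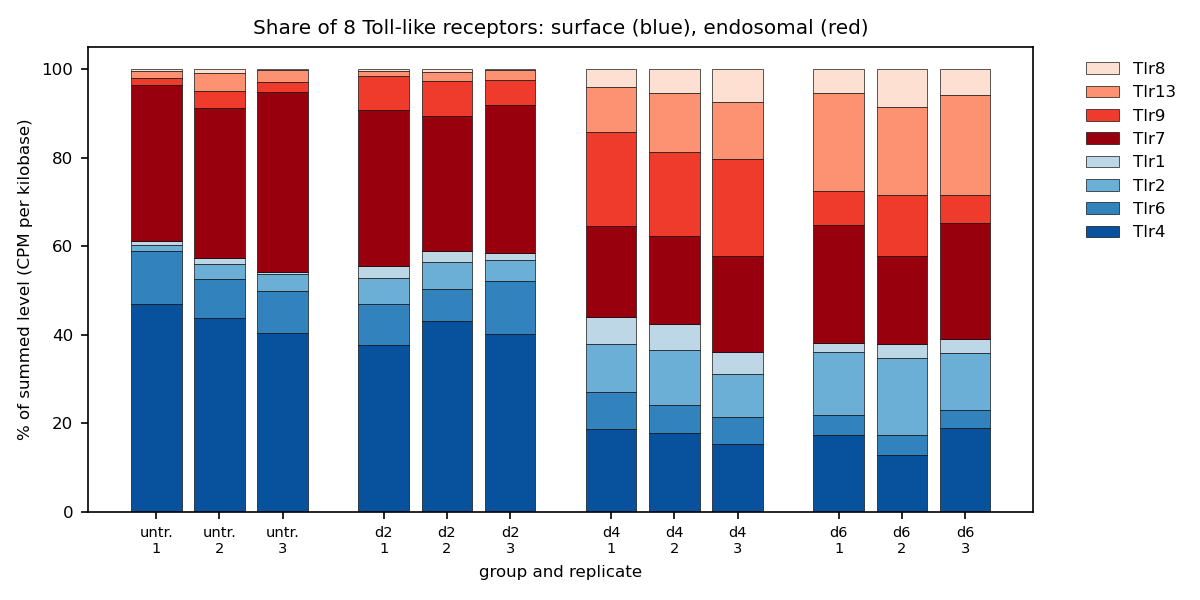
Share (%) of each of 8 receptors in their summed CPM per kilobase, 1 bar for each library, surface receptors in blue and endosomal ones in red. The red part is 61.1% to 62.2% at d6 Dox, against 38.8% to 45.8% in untreated libraries, and without Tlr4 its mean would be 73.8% against 75.3%.

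Within the surface group, Tlr4 made up 16.3% ± 3.20 of the 8 receptors at d6 Dox, against 43.7% ± 3.19 in untreated cells, although its own level was higher at d6 Dox. Tlr2 made up 2.92% ± 1.43 in untreated cells, 5.55% ± 0.695 at d2 Dox, 11% ± 1.38 at d4 Dox and 14.9% ± 2.45 at d6 Dox. The ratio of Tlr6 to Tlr1, the alternative partners of Tlr2, was 12.1 ± 4.96 in untreated cells, 4.58 ± 2.39 at d2 Dox, 1.24 ± 0.153 at d4 Dox and 1.70 ± 0.469 at d6 Dox. Tlr1 was counted only 5, 7 and 3 times in the untreated libraries, on which the first ratio rests. Within the endosomal group, Tlr9 had its largest share at d4 Dox (20.8% ± 1.5) and Tlr13 at d6 Dox (21.4% ± 1.43). The summed endosomal receptors were 0.459 ± 0.145 times Unc93b1 in untreated cells, 0.291 ± 0.0188 at d2 Dox, 0.282 ± 0.0449 at d4 Dox and 0.526 ± 0.0233 at d6 Dox.

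The genes whose pattern over the 12 libraries was most like each receptor were taken by the root mean square difference of centred log2 CPM among 11843 named genes, a description in which all points share the same libraries. For Tlr9 they were Ctss, an endosomal protease (0.22), Irf5, a transcription factor downstream of Toll-like receptors (0.22), and Il10ra (0.28). For Tlr1 they were Clec7a, Cd68 and Cyp27a1 (0.35 to 0.38), for Tlr2 Slfn2, Lrrc25 and Lsp1 (0.29 to 0.39) and for Tlr13 Pik3r5, Ptprc and Adam19 (0.35 to 0.47). For Tlr8 they were Adam19, Sirpb1c and Pid1 (0.45 to 0.46), for Unc93b1 Filip1l, Hacd4 and Mpeg1 (0.29 to 0.30) and for Cd14 Itgb7, Gm6377 and Ptger4 (0.39 to 0.42). The flatter genes had closer matches: Samd4b, Pptc7 and Rab3ip for Tlr4 (0.12 to 0.13), Cmtm6, Synj1 and Anxa2 for Tlr7 (0.10 to 0.11) and Adam15, Sumf1 and Cyth4 for Tlr6 (0.18 to 0.20). How near the closest other gene of the 10 ranked among the 11843 differed from gene to gene. The nearest other gene of the 10 ranked 8 for Tlr8 (Tlr13), 9 for Tlr1 (Tlr9), 13 for Tlr13 and 14 for Tlr9, and 34 for Unc93b1 (Tlr1), 49 for Tlr2 (Tlr9) and 184 for Cd14 (Tlr6). It ranked between 184 and 3662 for Tlr6, Tlr7 and Tlr4.

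Of the other mouse Toll-like receptors, Tlr5, the flagellin receptor, was higher at d4 Dox (1.45 ± 0.30, adjusted p = 0.00227) and at d6 Dox (0.86 ± 0.32, adjusted p = 0.0297) than in untreated cells. Tlr12, which in mice recognises a parasite profilin, was lower at d6 Dox (-1.68 ± 0.68, adjusted p = 0.0438), at 0.297 ± 0.161 CPM against 1.03 ± 0.571 CPM in untreated cells. It was counted only 1, 3 and 1 times at d6 Dox and 4, 12 and 6 times in untreated libraries, near the floor of detection. Tlr3, the receptor for double-stranded RNA, did not pass the filter and was at most 1.65 CPM except in d6 Dox replicate 2 (3.86 CPM). Tlr11 did not pass it either, with at most 0.321 CPM.

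Of 72 other genes of the pathway 70 were tested. At d4 Dox 39 were higher and 2 lower than in untreated cells, and at d6 Dox 40 were higher and 5 lower. Of all genes 22.1% were called higher and 20.2% lower at d4 Dox, and 35% higher and 32.9% lower at d6 Dox. Counts in the single lists below that are near these shares say nothing particular about a list. The median log2 fold change of the 70 was 0.42 at d4 Dox and 0.40 at d6 Dox. That of the 10 genes described first was 3.48 and 3.26. Both sets were chosen with earlier results of these data known. The 10 also include Tlr1 and Tlr8, under the count filter in all untreated libraries, so no conclusion is drawn from this gap. Without d6 Dox replicate 2, 42 of the 70 were higher and 9 lower at d6 Dox. Those called only then were Hsp90b1, Rab7b, Ctsl and Rnase4, which were lower, and Tollip and Tab1, which were higher.

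Among surface accessory proteins 3 of 7 were higher at d6 Dox and none lower. Itgam and Itgb2, the chains of an integrin that works with surface receptors, had 2276 ± 734 and 2460 ± 644 CPM at d6 Dox against 28.7 ± 13.6 and 278 ± 34.0 CPM in untreated cells (6.30 ± 0.51 and 3.14 ± 0.22, adjusted p = 1.86e-06 and 1.87e-07). Cd180, a receptor relative of Tlr4, rose by 2.78 ± 0.34 (adjusted p = 2.68e-05) and was lower at d6 Dox than at d4 Dox (-1.07 ± 0.29, adjusted p = 0.0107). Ly96, the partner of Tlr4, had 3.04 ± 1.56 CPM at d6 Dox and 2.73 ± 0.551 CPM in untreated cells and was not called there.

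Among the 9 folding and transport genes 4 were higher and 1 lower at d6 Dox. Slc15a3 and Slc15a4, endosomal peptide and histidine transporters, rose by 3.88 ± 0.43 and 0.77 ± 0.14 (adjusted p = 9.49e-06 and 2.98e-04), and Ap3d1, a subunit of the AP-3 sorting complex, by 0.37 ± 0.08 (adjusted p = 0.00134). Slc29a3, a lysosomal nucleoside transporter, was lower, at 94.6 ± 35.1 CPM against 259 ± 44.4 CPM in untreated cells (-1.45 ± 0.22, adjusted p = 1.25e-04).

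Of 6 endosomal proteases 4 were higher at d6 Dox. Ctss had 946 ± 683 CPM at d6 Dox against 37.3 ± 15.5 CPM in untreated cells (4.66 ± 0.52, adjusted p = 1.80e-05), Lgmn rose by 3.39 ± 0.53 and Ctsk by 1.81 ± 0.48 (adjusted p = 2.03e-04 and 0.00464). Ctsk had only 63 counts in all at d6 Dox and 24 in untreated libraries. Ctss ranged between 525 and 1733 CPM at d6 Dox, highest in replicate 2, without which it rose by 3.88 ± 0.33 and Lgmn by 2.58 ± 0.34 (adjusted p = 8.72e-06 and 9.52e-05). Of 6 endolysosomal nucleases, Pld4, which degrades single-stranded nucleic acids, rose by 4.75 ± 0.50 (adjusted p = 1.30e-05; 4.14 ± 0.39 and 1.89e-05 without d6 Dox replicate 2), and Dnase2a, an acid DNase, was lower (-0.81 ± 0.15, adjusted p = 4.55e-04).

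Of 7 adaptors 4 were higher and 1 lower at d6 Dox. Myd88 had 182 ± 32.6 CPM at d6 Dox against 65.1 ± 3.66 CPM in untreated cells (1.48 ± 0.12, adjusted p = 4.27e-07). Tirap, which brings Myd88 to surface receptors, rose by 2.00 ± 0.14, and Pik3ap1, a link to PI3-kinase, by 1.46 ± 0.11 (adjusted p = 1.21e-07 and 2.36e-07). Sarm1 was lower (-1.33 ± 0.53, adjusted p = 0.0396), with only 15 counts in all at d6 Dox and 50 in untreated libraries. Of 17 kinases and ubiquitin ligases 12 were higher and 1 lower, led by Map3k8 (2.39 ± 0.20), Lyn (2.12 ± 0.14) and Peli1 (2.07 ± 0.13; adjusted p = 4.96e-07, 1.04e-07 and 4.65e-08), with Ikbke lower (-0.53 ± 0.11, adjusted p = 0.00119).

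Of 8 downstream transcription factors 4 were higher and 1 lower at d6 Dox. Irf5 rose by 4.06 ± 0.52, Irf7 by 3.14 ± 0.46 and Rel by 2.17 ± 0.16 (adjusted p = 5.48e-05, 1.36e-04 and 1.71e-07). The rise of Irf5 was 3.32 ± 0.35 without d6 Dox replicate 2 (adjusted p = 3.43e-05). Irf8, a factor of monocyte and dendritic cell development, had 145 ± 77.3 CPM at d6 Dox against 711 ± 228 CPM in untreated cells (-2.28 ± 0.36, adjusted p = 2.24e-04). Of 10 negative regulators 8 were higher and none lower, among them Cd300lf (6.59 ± 0.37), Trem2 (3.78 ± 0.60) and Socs1 (2.12 ± 0.55; adjusted p = 6.10e-08, 2.43e-04 and 0.00454). That of Trem2 was 2.90 ± 0.43 without d6 Dox replicate 2 (adjusted p = 1.46e-04).

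**Figure D5:**
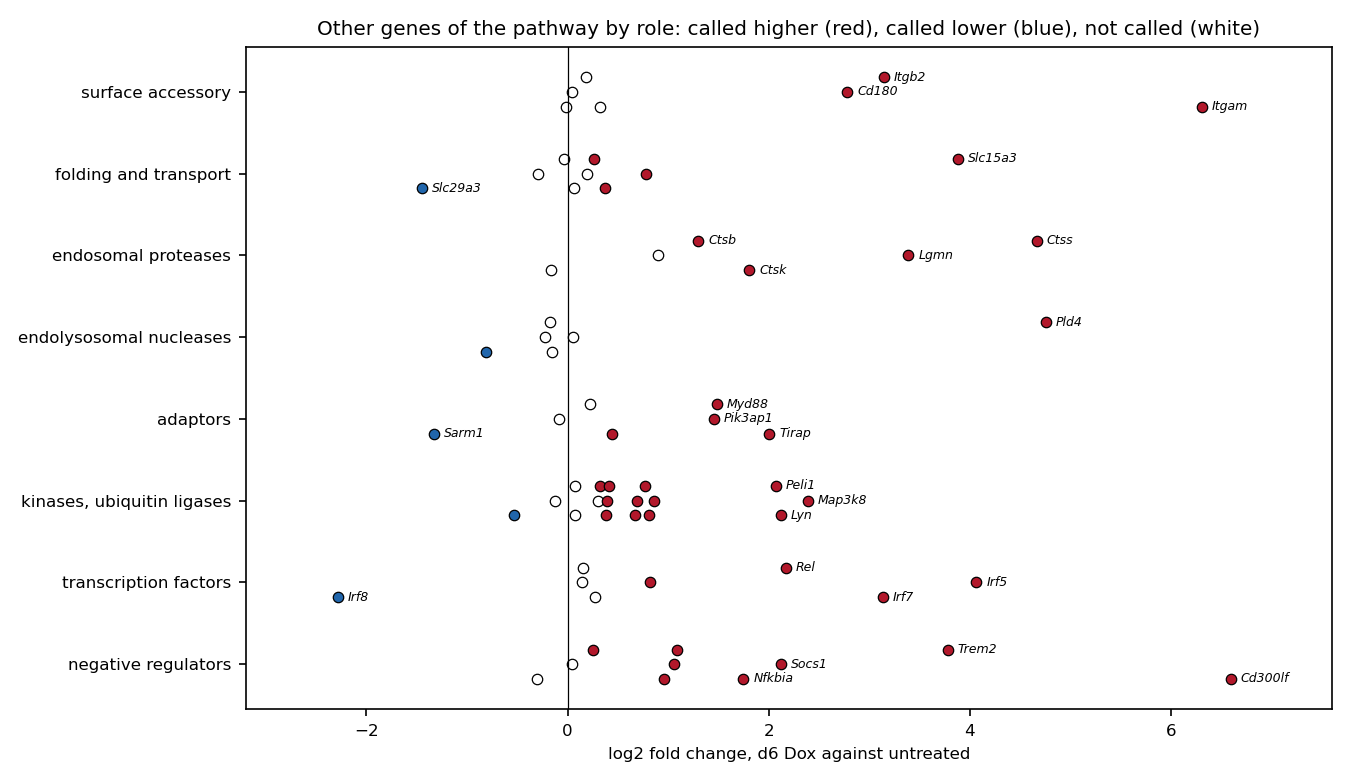
Log2 fold change at d6 Dox against untreated cells of the tested pathway genes by role, 1 point for each gene, coloured where called. Most called points are on the right, and Irf8, Slc29a3 and Sarm1 are the farthest to the left, Sarm1 on few counts.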

How the data were processed

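Bulk RNA sequencing gave 12 libraries of AML246 cells. The deposited files hold the raw count of reads per Entrez gene and a gene length, which the authors made without normalisation, per the file headers. The submitters' processing notes name the build mm10 and, as tools, featureCounts, CASAVA 1.8.2, limma 3.22.0 and edgeR 3.8.2; which aligner was used is not given in the sources used here. Symbols came from RefSeq (25275 of 27179 identifiers).

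Tests used edgeR 4.0.16 under R 4.3.3: filterByExpr left 12057 genes, TMM factors (1.02 to 1.15, and 0.737, 0.847 and 0.749 at d6 Dox) were applied, and all 12 libraries were fitted with the group as the only term (robust glmQLFit, 8 residual degrees of freedom). Tests were two-sided with Benjamini-Hochberg adjustment over all genes tested, called under 0.05. Errors of log2 fold changes are SE, those of levels SD over 3 libraries. Log2 CPM for pattern likeness used a prior count of 2. The procedure was tested on simulated data. The genes and lists were chosen with earlier results of these data known. All 10 genes are named, and of each pathway list up to 3 genes called higher and 3 called lower at d6 Dox with the largest change; Ly96 was added after its values were seen. Alternatives were DESeq2 1.42.0, other scalings and filters, fits of 2 groups, a replicate block and each library left out. The lists and pathway genes without d6 Dox replicate 2, and the endosomal share with each receptor left out, were added after seeing the data. The floor of 3 counts covers counting error only.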

Additional observations from a re-analysis of the deposited data

How the results depend on the processing

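The calls against untreated cells at d4 and d6 Dox held for 9 or 10 of the 10 genes under all 20 alternatives, and those of d4 against d2 Dox for 8 or 9. At d2 Dox, 0 of the 10 were called by edgeR, with 4 by DESeq2, 1 in the fit of only 2 groups and 0 to 3 with 1 library left out. All genes called at d2 Dox numbered 175, with 1726 at an unadjusted p under 0.05, and were 414 with DESeq2, 412 with only 2 groups and 38 to 603 with 1 library left out. For d4 against d2 Dox, 3042 genes were called and 1876 to 4193 with 1 library left out. For d6 against d4 Dox, 3 of the 10 were called, 6 with library totals and 2 to 5 with 1 library left out. Other pathway genes called at d2 Dox were 5, and 14 without d6 Dox replicate 2. The endosomal share was 16.7 percentage points above untreated at d4 Dox and 19.3 at d6 Dox, and -3.87 and -1.53 without Tlr4.

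No difference that changed sign was called under either setting. At d2 Dox against untreated, Tlr8 (-0.02) was 0.0033 with DESeq2, 0.0073 with library totals, 0.028 with the block, 0.80 without untreated replicate 2 and 0.51 without d2 Dox replicate 3. Tlr13 (-0.10) was 0.30 without untreated replicate 2 and 0.18 without d2 Dox replicate 1, and Cd14 (-0.14) was 0.64 without untreated replicate 3. With 1 library left out these differences reached down to -0.53 for Tlr8, -0.40 for Tlr13 and -0.43 for Cd14. Tlr4 at d6 against d4 Dox (0.24) was -0.16 with library totals. The call of Cd14 at d4 Dox was lost in the fit of only 2 groups (adjusted p = 0.0766), and at d6 Dox it was called with DESeq2 (adjusted p = 0.0437). The call of Tlr2 for d6 against d4 Dox was lost with upper-quartile factors, without a filter and with only 2 groups (adjusted p = 0.0831, 0.0911 and 0.0607). The causes were not tested.

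With the replicate number as a block, 1 of the 10 was called at d2 Dox (Unc93b1) and 6 for d6 against d4 Dox, where Tlr1, Tlr9 and Unc93b1 were lower. No pairing by number was seen in the deviations from the group means: their mean correlation was 0.00567 over 18 pairs (-0.172 to 0.29). A library was closest to those of its own number in 4 of 12 cases. Whether libraries of the same number share a mouse or a batch was not tested. The share of higher calls among all genes moved with the scaling, at d6 Dox against untreated being 51.6% with TMM, 37.4% with the upper quartile and 25.2% with totals. It was 52.2%, 41.2% and 39.1% at d4 Dox, 59.6%, 43.8% and 35.1% for d4 against d2 Dox and 51.1%, 34.6% and 17.5% for d6 against d4 Dox. Among the 10 genes the depth limits Tlr8 most, with 1 to 7 counts in untreated and d2 Dox libraries.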
